A study of Mus musculus with 4 samples.

Results

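Immediate-early-high tumour cells were the 2613 cells, of 26135 gated tumour cells and 45220 cells in all, that had the most UMIs (unique molecular identifiers, 1 per captured RNA molecule) of Ier2, Egr1, Cyr61 and Snai1. A cell passed the tumour gate with at least 5 UMIs of Krt8, Krt18, Tm4sf1 and Cdkn2a together and under 5 of Tyrobp, Fcer1g, Cd3e and Cd3g together, both per 10000 UMIs of the cell. It also needed 0 UMIs of Epcam and at least 300 genes. The 4 rule genes were then summed per 10000 UMIs of the cell, and the 10% of gated cells with the highest sum, pooled over the 4 libraries, were taken. These sums chose the cells, so every difference between these cells and the other 23522 gated tumour cells is a description and carries no test.

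The study grew transplanted tumours in mice from Py8119, a mesenchymal mammary carcinoma line of a PyMT transgenic mouse, and asked about the semaphorin Sema4d made by the tumour cells themselves in a model of triple-negative breast cancer. The Sema4d-shRNA group had 2 libraries, from tumours in which a short hairpin RNA was directed at Sema4d, and the NC group had 2 libraries, whose genotype was given as control. Both groups were of the same line, were dissociated with enzymes and were sequenced by a droplet method. The labels did not give the hosts' strain, age or sex, the clones or hairpin sequence, or the animals behind each library, so every p-value here measures the spread between these libraries, which may be technical.

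Immediate early genes are transcribed within minutes of a growth factor, stress or mechanical signal, from promoters that need no new protein. MAP kinases act on serum response factor (SRF) and on CREB, actin tension and YAP act on SRF and TEAD sites, and the first products, such as the AP-1 factors Fos and Jun, switch on later genes, while phosphatases and RNA decay factors end the response. In dissociated tumours these genes are also known to be switched on by the warm digestion itself, and that part was not tested here.

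Of the rule genes, Ier2 encodes a nuclear immediate early protein and Egr1 a zinc finger transcription factor. Cyr61 encodes a secreted matrix protein of the CCN family and is a target of SRF and YAP, and Snai1 encodes a repressor that drives epithelial-mesenchymal transition. Ier2 lies on chromosome 8 from 84661331 to 84662852, Cyr61 on chromosome 3 from 145646976 to 145649981 and Snai1 on chromosome 2 from 167538195 to 167542814 (GRCm38).

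Promoters are shown for the 4 genes among the 20 with the highest ratio (immediate-early-high over other cells) whose window held one of the motifs searched. The windows run from 250 bases before to 50 after the start of transcription, are from RefSeq (GRCm38.p6) and are written 5′ to 3′ along the gene's strand. Capitals mark the match: CATTCC, the reverse complement of the TEAD letters GGAATG, in Cyr61 (named Ccn1 in RefSeq), the cyclic AMP response element (CRE) TGACGTCA in Btg2 and Dusp1, and a CArG box, the SRF element, in Zfp36. Cyr61 is at chr3:145649936-145650235, Btg2 at chr1:134079106-134079405, Zfp36 at chr7:28379179-28379478 and Dusp1 at chr17:26508423-26508722, all on the minus strand.
Cyr61: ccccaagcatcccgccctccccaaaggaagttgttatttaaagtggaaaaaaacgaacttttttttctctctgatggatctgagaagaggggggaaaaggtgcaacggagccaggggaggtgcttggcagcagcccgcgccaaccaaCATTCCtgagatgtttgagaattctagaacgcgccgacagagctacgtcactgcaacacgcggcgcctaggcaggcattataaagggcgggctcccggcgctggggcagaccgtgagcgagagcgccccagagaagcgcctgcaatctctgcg
Btg2: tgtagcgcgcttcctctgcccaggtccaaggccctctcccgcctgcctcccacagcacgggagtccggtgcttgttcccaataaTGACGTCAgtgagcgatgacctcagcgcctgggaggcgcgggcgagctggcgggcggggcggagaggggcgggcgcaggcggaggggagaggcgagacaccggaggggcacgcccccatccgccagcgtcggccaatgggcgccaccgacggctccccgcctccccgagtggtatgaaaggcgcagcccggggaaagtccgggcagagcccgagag
Zfp36: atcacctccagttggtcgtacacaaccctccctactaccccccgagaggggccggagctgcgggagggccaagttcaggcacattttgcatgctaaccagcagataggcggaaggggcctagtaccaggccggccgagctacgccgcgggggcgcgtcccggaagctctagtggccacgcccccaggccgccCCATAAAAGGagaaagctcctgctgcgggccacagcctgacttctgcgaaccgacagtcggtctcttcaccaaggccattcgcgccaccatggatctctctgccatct
Dusp1: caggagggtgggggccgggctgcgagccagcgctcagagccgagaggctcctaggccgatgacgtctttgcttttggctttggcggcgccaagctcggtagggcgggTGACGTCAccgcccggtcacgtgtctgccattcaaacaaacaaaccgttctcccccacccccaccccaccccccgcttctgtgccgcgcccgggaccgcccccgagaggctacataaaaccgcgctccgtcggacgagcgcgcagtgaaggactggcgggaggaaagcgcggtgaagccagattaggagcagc

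The match began 103 bases before the start in Cyr61, 166 in Btg2, 58 in Zfp36 and 143 in Dusp1. Of the 20 genes, 13 had a RefSeq window, and Ier2, Egr1, Ctgf, Phlda1, Hes1 and Aldh3a1 were among those without one. On either strand, 2 of the 13 held a CRE (15.4%, against 2.03% of 27025 genes) and 1 a CArG box (7.69%, against 1.81%). TEAD letters were in 1 (7.69%, against 16.6%), and neither the AP-1 letters TGANTCA (8.97% of all genes) nor the EGR letters GCGTGGGCG (0.707%) were in any of the 13. These letters describe the windows and say nothing of binding.

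The immediate-early-high cells numbered 795 and 995 in the Sema4d-shRNA libraries 1 and 2, and 404 and 419 in the NC libraries 1 and 2. The lowest score among them was 18.3 UMIs per 10000, the highest 100.6 and the median 24.2, against a median of 4.24 in the other tumour cells, of which the highest also had 18.3. The score had no gap at the threshold. The 100 cells just inside had a median of 18.4 and the 100 just outside one of 18.1. Within 10% of the threshold lay 528 immediate-early-high and 648 other cells, so the rule cut through a range of scores without a break there. Whether the cells above it form a separate type was not tested.

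Immediate-early-high cells were shallower than the other tumour cells. Their median depth was 7348 and 7712 UMIs in the Sema4d-shRNA libraries and 7821 and 7165 in the NC libraries, against 11464.5 and 10006, and 10616 and 9202 in the other cells. Of each cell's UMIs a median of 20 in 3 libraries and 18 in NC library 2 came from the rule genes, against 3 to 5 in the other cells. The whole libraries held 113904173 and 119758159 UMIs (Sema4d-shRNA) and 101909637 and 83513906 UMIs (NC), and every deposited cell had at least 1000.

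The cells carried tumour markers, as the gate required, and little of other cell types. Krt8, Krt18, Tm4sf1 and Cdkn2a together stood at 1332 and 1507 CPM (counts per 1000000 UMIs) in the immediate-early-high cells of the Sema4d-shRNA libraries and at 1525 and 1400 CPM in those of the NC libraries, against 1405 and 1560, and 1516 and 1526 CPM in the other tumour cells. The 8 macrophage markers summed to 138 and 147 CPM in the immediate-early-high cells of the Sema4d-shRNA libraries and to 294 and 381 CPM in those of the NC libraries, against 137 and 143, and 292 and 368 CPM in the other tumour cells. They were thus at like levels in both kinds of tumour cell and higher in both NC libraries than in both Sema4d-shRNA libraries. The 4 fibroblast markers Col1a1, Dcn, Pdgfra and Lum summed to 88.3 and 45.7 CPM (Sema4d-shRNA) and 86.4 and 90.4 CPM (NC) in the immediate-early-high cells, against 43.8 and 40.4, and 42.0 and 58.4 CPM in the others, with Lum at 0.553 CPM or less. Their part in the matrix genes named below was not tested. The 5 T and NK markers were at 10.4 CPM or less in the immediate-early-high cells and below the other tumour cells of the same library in all 4. Of the 5 mammary epithelial markers, Epcam was at 0, as the gate required, and Wap and Krt5 were at 0 too. Krt14 was at 0.572 CPM or less. Csn3 had 0.553 and 0.224 CPM (Sema4d-shRNA) and 0.523 and 5.72 CPM (NC), against 0.104 and 0.310, and 0.0576 and 0.191 CPM in the others.

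Most immediate-early-high cells held several of the rule genes at once. All 4 had a UMI in 33.6% of the cells, 3 in 47.6%, 2 in 16.2% and only 1 in 2.60%. Ier2 had the most UMIs of the 4 in 50.7% of the cells, Cyr61 in 31.6%, Egr1 in 10.1% and Snai1 in 5 cells, with a tie in 7.39%. Ier2 led in 63.1% and 44.9% of the cells of the Sema4d-shRNA libraries and in 45.8% and 45.6% of those of the NC libraries, so Sema4d-shRNA library 1 stood apart. Cyr61 led in 21.3% and 38.9% (Sema4d-shRNA) and in 30.2% and 35.1% (NC). The groups overlap for both genes.

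A Snai1 UMI was found in 54.7% and 38.0% of immediate-early-high cells of the Sema4d-shRNA libraries and in 38.1% and 45.1% of those of the NC libraries, against 37.7% and 27.9%, and 25.5% and 28.6% of the other tumour cells. In macrophage-gated host cells, which should make little Snai1 and Cyr61 and had median depths of 3778 to 4702 UMIs, a Snai1 UMI was found in 1.58% to 3.06% of cells and a Cyr61 UMI in 7.17% to 8.53%. Cyr61 UMIs were in 87.0% to 92.3% of the immediate-early-high cells and 51.0% to 61.7% of the other tumour cells. The shares of both genes were above those of the macrophage-gated cells in each kind of tumour cell, though the macrophage-gated cells were also shallower. Egr1 and Ier2 are also made by macrophages, where 27.7% to 35.1% and 43.1% to 48.6% of the gated cells had a UMI.

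Since choice and level used the same UMIs, the level of the rule genes was also measured apart from the choice. When the UMIs of each cell were split at random in 2 parts and cells were chosen on one and measured in the other, the log2 ratio of UMIs per 10000 over the other cells was 2.02 for Ier2 against 2.30 on the same UMIs, 2.04 against 2.25 for Cyr61, 1.96 against 2.24 for Egr1 and 0.96 against 1.31 for Snai1. When cells were chosen on the other three rule genes, the log2 ratio of the gene left out was 1.39 for Ier2, 1.28 for Cyr61, 1.57 for Egr1 and 0.85 for Snai1, as means over 4 libraries, the lowest single one being 0.57 for Snai1. Each rule gene was thus higher, in all 4 libraries, in cells that were chosen without it.

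Across all genes, the ratio of the immediate-early-high over the other tumour cells was taken within each library from summed counts and averaged over the 4 libraries on the log2 scale. Of 2718 genes with a mean of at least 50 CPM in either kind of cell, 34.4% were higher and 31.9% lower in all 4 libraries, with a median log2 ratio of 0.006. At least a 2-fold mean difference was seen for 1.36% of the genes upward and 0.625% downward, so the shift was wide and for most genes small.

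**Figure D1:**
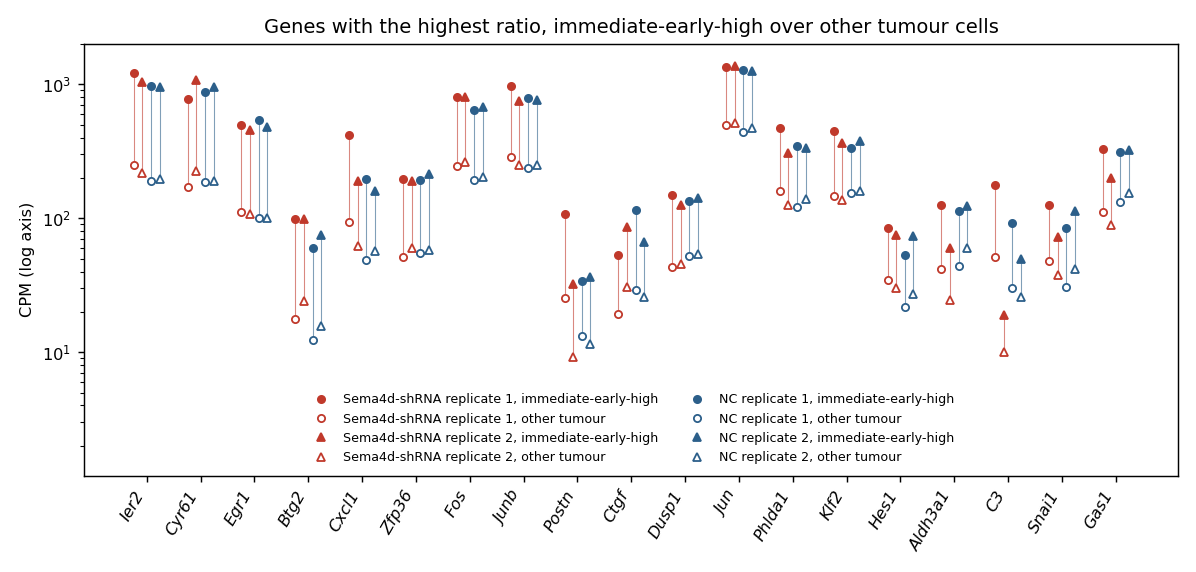
CPM (log axis) of genes among the 20 with the highest mean log2 ratio, in the immediate-early-high cells (filled) and the other tumour cells (open) of each library, joined by lines. Every filled point lies above its open one, and the mean lengths of the lines run from 2.29 log2 units for Ier2 to 1.25 for Gas1.

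The AP-1 genes, subunits of the dimer that carries the response on, had 6 of 7 measured members higher and 1 lower in all 4 libraries, with a median log2 ratio of 1.00. Fos had 799 and 798 CPM in the immediate-early-high cells of the Sema4d-shRNA libraries and 643 and 682 CPM in those of the NC libraries, against 244 and 262, and 194 and 203 CPM in the other cells (mean log2 ratio 1.69). Junb had 972 and 752 CPM (Sema4d-shRNA) and 797 and 758 CPM (NC), against 288 and 250, and 237 and 252 CPM (1.67). Every immediate-early-high value of both genes lay above every value of the other cells, and the spread between libraries was small beside the ratio. Jun averaged 1.46 on the same scale and Jund 1.00, with smaller ratios for Fosl2 (0.53) and Mafg (0.29). Fosl1, an AP-1 subunit tied to lasting MAP kinase signals, was the lower one, at a mean of 90.9 against 115.5 CPM (log2 ratio -0.34). The 14 AP-1 genes of the list summed to 4051 and 3791 CPM (Sema4d-shRNA) and 3623 and 3532 CPM (NC) in the immediate-early-high cells, against 1599 and 1582, and 1447 and 1476 CPM in the others.

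Of the other immediate early transcription factors, with the rule genes left out, 11 of 11 measured members were higher in all 4 libraries, with a median log2 ratio of 0.95. The largest were Klf2, a flow- and MEK5-responsive factor, at a mean of 379 against 149 CPM (log2 ratio 1.34), and Hes1, the Notch effector, at 71.5 against 28.4 CPM (1.30). Ier3, a regulator of apoptosis, stood at 134 against 57.9 CPM (1.16), the Id3 repressor at 753 against 390 CPM (0.95) and the Klf4 factor at 346 against 186 CPM (0.89). Myc was among the smallest, at 211 against 146 CPM (0.52), with Ier5l at 0.47. The NR4A and EGR2 genes were scarce, and Egr2 at a mean of 16.0 CPM (log2 ratio 1.92) and Nr4a1 at 27.7 CPM (1.41) were below the level limit.

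Genes that end the response were higher too, with 18 of 18 measured members of the feedback list higher in all 4 libraries and a median log2 ratio of 0.93. Btg2, an antiproliferative adaptor of RNA deadenylation with the CRE printed above, had 99.1 and 98.4 CPM in the immediate-early-high cells of the Sema4d-shRNA libraries and 60.2 and 74.7 CPM in those of the NC libraries, against 17.7 and 24.2, and 12.2 and 15.6 CPM in the others. Its mean log2 ratio was 2.20 (1.98 to 2.42 over libraries). Among the rule genes, Ier2, Cyr61 and Egr1 had 2.29, 2.25 and 2.23, and Snai1 had 1.28. Zfp36, which binds and destroys AU-rich messages and has the CArG box, had 198 and 191 CPM (Sema4d-shRNA) and 193 and 214 CPM (NC), against 51.4 and 60.1, and 54.8 and 58.4 CPM (log2 ratio 1.81). Dusp1, the phosphatase of MAP kinases, had 149 and 125 CPM (Sema4d-shRNA) and 135 and 141 CPM (NC), against 43.1 and 45.4, and 52.0 and 54.5 CPM (1.48). None of the 3 genes had overlapping values between the 2 kinds of cell. Socs3, an inhibitor of cytokine signalling, and the pseudokinase Trib1 followed at 1.24 and 1.19, Rhob, an endosomal GTPase, and Dusp6, the ERK phosphatase, were at 1.15 and 1.08, and the smallest were Mcl1 (0.31) and Zfp36l2 (0.30).

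**Figure D2:**
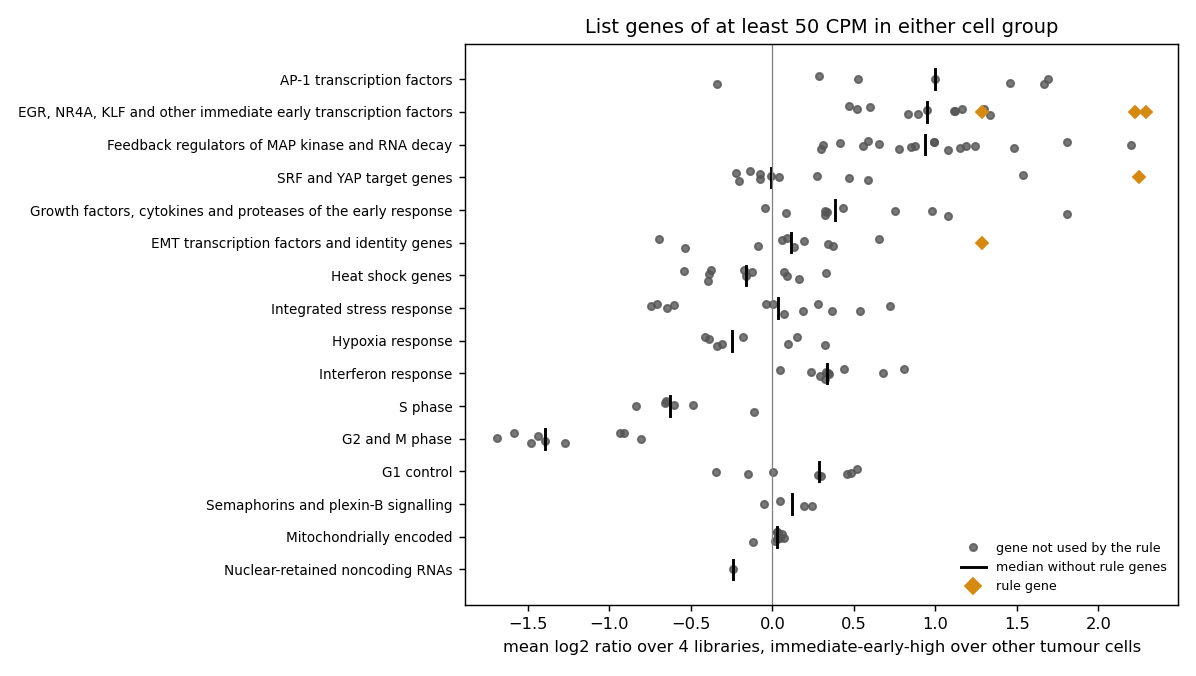
Mean log2 ratio over 4 libraries of each list gene with at least 50 CPM, immediate-early-high over other tumour cells, 1 line per list, with diamonds for rule genes and black ticks for medians of the other genes. The AP-1, immediate early and feedback lists lie right of 0, with 1 AP-1 gene left of it, while every G2 and M phase and S phase gene lies left of 0.

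Secreted signals were uneven. Of 10 measured growth factor, cytokine and protease genes, 8 were higher in all 4 libraries and none was lower in all 4 (median log2 ratio 0.38). Cxcl1, a neutrophil chemokine, had 421 and 190 CPM in the immediate-early-high cells of the Sema4d-shRNA libraries and 197 and 160 CPM in those of the NC libraries, against 94.0 and 62.2, and 48.5 and 56.7 CPM in the others (log2 ratio 1.81). Its level in Sema4d-shRNA library 1 stood apart in both kinds of cell. The monocyte chemokines Ccl7 and Ccl2 stood at means of 128 against 55.1 CPM (1.08) and 317 against 147 CPM (0.98, with 0.29 in the lowest library). Hbegf, Vegfa and Inhba were nearer to 0, each at 0.32 or 0.33.

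Without the rule gene Cyr61, the SRF and YAP target list had no common direction, with 4 of 11 measured members higher and 5 lower in all 4 libraries (median log2 ratio -0.01). Ctgf, the CCN relative of Cyr61, had 52.8 and 85.7 CPM (Sema4d-shRNA) and 116 and 66.9 CPM (NC) in the immediate-early-high cells, against 19.3 and 30.9, and 29.0 and 25.7 CPM in the others (log2 ratio 1.54). The other higher members were the matricellular Thbs1 (0.59), the YAP regulator Amotl2 (0.47) and the adhesion protein Vcl (0.28). Ankrd1, a muscle ankyrin repeat protein and YAP target, stood at a mean of 216 against 210 CPM (-0.01), with Actb at -0.08, Tpm1 at -0.21 and Axl at -0.22.

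Outside the lists, the 20 highest ratios included Postn, the matricellular protein periostin, with 107 and 32.0 CPM (Sema4d-shRNA) and 34.0 and 36.6 CPM (NC) in the immediate-early-high cells, against 25.5 and 9.28, and 13.2 and 11.5 CPM in the others (log2 ratio 1.65). Sema4d-shRNA library 1 was the high one in both kinds of cell. The apoptosis-linked Phlda1 (1.40), the aldehyde dehydrogenase Aldh3a1 (1.29), complement C3 (1.29, 0.86 to 1.77 over libraries) and the growth arrest gene Gas1 (1.25) were also among them. Gas1 stood at a mean of 291 against 122 CPM. The summed fibroblast markers given above moved the same way.

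Genes of cell division were the lowest. All 9 measured G2 and M phase genes and all 6 S phase genes were lower in all 4 libraries, with median log2 ratios of -1.39 and -0.63. Ube2c, which feeds ubiquitin to the anaphase-promoting complex, had 53.3 and 79.7 CPM in the immediate-early-high cells of the Sema4d-shRNA libraries and 43.7 and 55.2 CPM in those of the NC libraries, against 205 and 175, and 199 and 162 CPM in the others (log2 ratio -1.69). Among the next were Cdc20 (-1.60), the centromere protein Cenpf (-1.58) and the mitotic kinase Plk1 (-1.48), and the values of Ube2c in the 2 kinds of cell do not overlap. Mki67 stood at 21.5 against 52.8 CPM (-1.27) and Top2a at 96.4 against 182 CPM (-0.91). Cyclin D1 (Ccnd1) was also lower, at 630 against 803 CPM (-0.35), and the Cdk inhibitor Cdkn2a, which the tumour gate used, was higher, at 500 against 409 CPM (0.28).

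Other stress and response programmes differed in direction. Over all measured genes 34.4% were higher and 31.9% lower in all 4 libraries. Of 11 measured heat shock genes 2 were higher and 7 lower in all 4 libraries (median log2 ratio -0.16), with Hsp90aa1 at 381.5 against 553 CPM (-0.54) and Hspd1 at -0.40. Of 12 integrated stress response genes 4 were higher and 4 lower, with the transcription factor Cebpb at 533 against 316 CPM (0.72) and the serine synthesis enzymes Psat1 (-0.74) and Phgdh (-0.60) on the other side, and Atf4 at 0.00. Hypoxia genes had 3 higher and 5 lower of 8 (median -0.25). Interferon genes were higher for 9 of 10 (median 0.33), with the chemokine Cxcl10 at 229 against 130 CPM (0.81). None of the 10 measured mitochondrially encoded genes had the same direction in all 4 libraries. Among epithelial-mesenchymal genes, fibronectin (Fn1) stood at 1750 against 1111 CPM (0.65) and vimentin at 0.06, with the gate's keratins lower, Krt8 at 374 against 532 CPM (-0.54) and Krt18 at 61.3 against 93.7 CPM (-0.70).

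Depth differed between the 2 kinds of cell, so the contrast was repeated with a choice on thinned cells and within a band of depth. Both were decided after the data had been seen. Thinning served the choice only, and all UMIs of the cells were then summed. The cells so chosen were still shallower, with medians of 8753 and 8890.5 (Sema4d-shRNA) and 10039 and 8500 UMIs (NC). The others had 12047 and 10713, and 11756 and 10222. When cells were chosen after thinning to 3000 UMIs each, the mean log2 ratio of the summed list was 1.14 for AP-1, 0.79 for the other immediate early factors without the rule genes, 0.73 for feedback, -0.53 for S phase and -1.01 for G2 and M phase. With only cells of 6000 to 12000 UMIs the same ratios were 1.26, 0.88, 0.80, -0.58 and -1.10. There the median depths were near each other, at 8355 to 8659 against 8758.5 to 8863 UMIs. The values with the main choice of cells were 1.30, 0.92, 0.84, -0.70 and -1.26. The interferon list was at 0.32 with the thinned choice and at 0.15 between 6000 and 12000 UMIs, where 1 library lay below 0.

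The cells were not uniform within themselves. Of the members, those in which Cyr61 led (825 cells) were set beside those in which Ier2 led (1325 cells), again with no test since the rule genes define both. All 11 measured SRF and YAP targets other than Cyr61 were higher in all 4 libraries in the Cyr61-led cells, with a median log2 ratio of 0.54 against 0.045 over 2748 genes, of which 27.7% were higher and 15.8% lower in all 4. Ankrd1, given above as near 0 between immediate-early-high and other cells, had 324 and 497 CPM in the Cyr61-led cells of the Sema4d-shRNA libraries and 447 and 358 CPM in those of the NC libraries, against 68.8 and 137, and 55.5 and 82.2 CPM in the Ier2-led cells (log2 ratio 2.29). Ctgf had 109 and 131 CPM (Sema4d-shRNA) and 242 and 109 CPM (NC), against 33.2 and 52.1, and 59.2 and 45.2 CPM (1.56). In both genes every Cyr61-led value lay above every Ier2-led one.

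Secreted factors went with the Cyr61-led cells as well, with 7 of 11 higher in all 4 libraries (median log2 ratio 0.55). Hbegf, a ligand of the EGF receptor, had 328 and 202 CPM in the Cyr61-led cells of the Sema4d-shRNA libraries and 233 and 162 CPM in those of the NC libraries, against 124 and 86.9, and 80.7 and 41.8 CPM in the Ier2-led cells (1.51). The activin subunit gene Inhba averaged 1.14. The endothelin gene Edn1 averaged 1.27 but was below the level limit, with means of 45.2 against 18.1 CPM. All 5 measured G2 and M phase genes were higher too (median 0.80), with Birc5 at 0.97. On the other side Rgs2, a regulator of G protein signalling, stood at a mean of 75.7 CPM in the Cyr61-led against 149 CPM in the Ier2-led cells (-0.98), Klf2 at 276 against 449 CPM (-0.71) and Junb at 639 against 941 CPM (-0.56). Egr1 was alike in both (-0.05). The genes named here and plotted were chosen after their values had been seen.

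**Figure D3:**
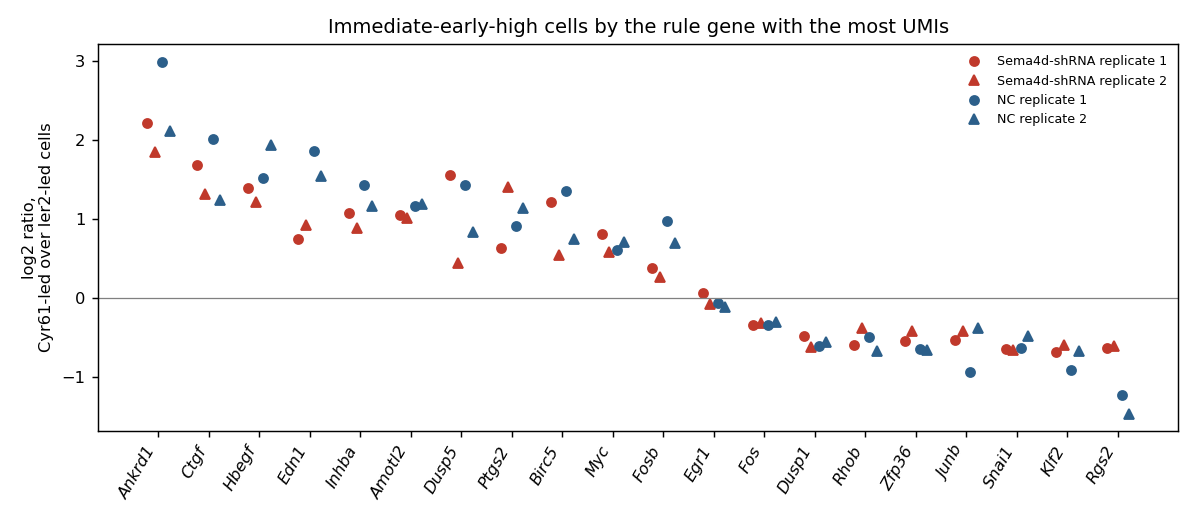
Log2 ratio of CPM in Cyr61-led over Ier2-led immediate-early-high cells, 1 point per library. Ankrd1, Ctgf and Hbegf lie above 1 in every library, Egr1 lies near 0, and Klf2, Junb and Rgs2 lie below 0 in every library.

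Immediate-early-high cells made up a larger share of the gated tumour cells in both Sema4d-shRNA libraries than in both NC libraries. The share was 11.4% (exact Clopper-Pearson 95% interval 10.7 to 12.2) and 11.9% (11.2 to 12.6) in the Sema4d-shRNA libraries, against 7.05% (6.40 to 7.75) and 8.23% (7.49 to 9.02) in the NC libraries. These intervals cover counting error only. The means were 11.7% ± 0.348 and 7.64% ± 0.833 (SD, n = 2 each), a 1.53-fold difference or 0.61 on the log2 scale. The groups do not overlap, and the two-sided exact permutation test gave p = 0.333, the smallest that 2 against 2 libraries allow.

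**Figure D4:**
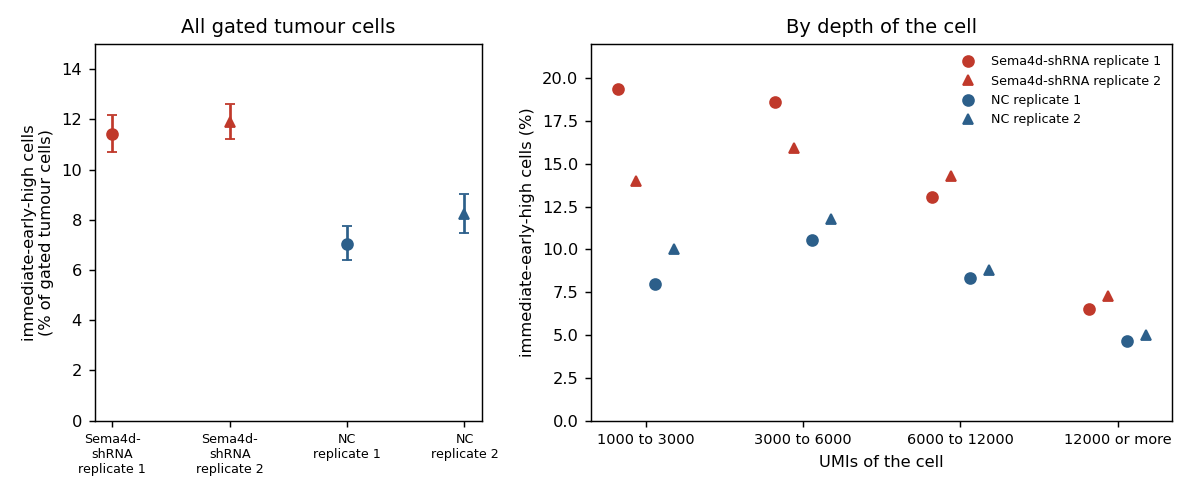
Left, the share of gated tumour cells that were immediate-early-high in each library with exact 95% intervals. Right, the same share among cells of 4 ranges of depth, where both Sema4d-shRNA libraries lie above both NC libraries in each range, from 19.4% and 14.0% against 7.98% and 10.0% at 1000 to 3000 UMIs to 6.50% and 7.26% against 4.65% and 5.03% at 12000 or more.

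After each cell was thinned to 3000 UMIs, the shares stood at 10.8% and 12.1% in the Sema4d-shRNA libraries and 6.96% and 8.68% in the NC libraries. Thinning left out 470 and 728 shallower cells (Sema4d-shRNA) and 652 and 598 (NC), and of the 2368 cells it chose 1697 were among the 2613, which is 71.7% of the thinned choice and 64.9% of the other. Among cells with no UMI of the 4 immune genes of the gate the shares were 10.9% and 11.3% (Sema4d-shRNA), against 7.32% and 8.42% (NC). With each rule gene weighted alike they were 12.2% and 11% (Sema4d-shRNA), against 6.65% and 9.17% (NC). The order of the groups was the same in all of these. Mitochondrial UMIs moved with the groups, at 0.322% and 0.392% of the summed UMIs of the immediate-early-high cells in the Sema4d-shRNA libraries and 0.805% and 0.695% in the NC libraries, and their part in the share was not tested.

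Without the choice of cells, the rule genes themselves passed no test between the groups. Over all gated tumour cells edgeR's quasi-likelihood test with Benjamini-Hochberg adjustment called 84 of 14827 genes (0.567%), 16 higher (0.108%) and 68 lower (0.459%) in Sema4d-shRNA. The count was 865 and 1152 without Sema4d-shRNA libraries 1 and 2, and 10 and 3 without NC libraries 1 and 2. Ier2 had 325 and 295 CPM in the Sema4d-shRNA libraries and 230 and 245 CPM in the NC libraries (log2 0.43, SE 0.08, edgeR adjusted p = 0.068). Egr1 had 141 and 140, against 124 and 124 CPM (0.23, edgeR adjusted p = 0.23), and both genes were higher in both Sema4d-shRNA libraries. Cyr61 had 218 and 305, against 222 and 237 CPM (0.24, edgeR adjusted p = 0.62), and Snai1 had 54.3 and 41.2, against 33.4 and 45.9 CPM (0.32, edgeR adjusted p = 0.56). The libraries of the groups overlapped for both of these.

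Of the immediate early and stress lists, 6 genes did pass over all gated tumour cells. They were 2 of 24 tested immediate early factors (rule genes included), 1 of 31 feedback genes and 1 of 17 integrated stress response genes. Of 23 growth factor, cytokine and protease genes, 1 was called higher and 1 lower. None of 14 AP-1, 23 SRF and YAP target or 15 heat shock genes was called. Over all genes the share was 0.567%. Nr4a1, an orphan nuclear receptor, rose to 12.3 and 15.3 CPM in Sema4d-shRNA, against 7.92 and 8.56 CPM in NC (log2 0.80, SE 0.13, edgeR adjusted p = 0.049). Inhba rose to 52.0 and 52.5, against 37.8 and 36.4 CPM (0.54, edgeR adjusted p = 0.030), and Ier5l to 66.6 and 62.3, against 45.5 and 47.5 CPM (0.52, edgeR adjusted p = 0.034). Ppp1r15a, a phosphatase adaptor that restarts translation after stress, and the stress factor Atf4 rose by 0.46 and 0.49 on the log2 scale (edgeR adjusted p = 0.047 and 0.046). The chemokine gene Cxcl2 fell to 2.67 and 2.17, against 5.30 and 4.50 CPM (-0.97, edgeR adjusted p = 0.046). The calls of Nr4a1, Inhba, Ier5l, Ppp1r15a and Atf4 were each lost when either NC library was left out, with edgeR adjusted p from 0.30 to 0.49.

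Within the immediate-early-high cells, none of the immediate early, feedback, growth factor or stress genes was called. There edgeR called 30 of 10830 genes (0.277%), 4 higher (0.0369%) and 26 lower (0.24%). With 1 library left out the count was 306 and 101 without Sema4d-shRNA libraries 1 and 2, and 11 and 24 without NC libraries 1 and 2. The smallest adjusted p in these lists was that of Atf4, with 309 and 361 CPM in Sema4d-shRNA, against 231 and 214 CPM in NC (log2 0.62, edgeR adjusted p = 0.058). Btg2 had 99.1 and 98.4, against 60.2 and 74.7 CPM (0.59, SE 0.14, edgeR adjusted p = 0.10), again with no overlap. Fos was at 0.30 (edgeR adjusted p = 0.57). The rule genes, given as values since they chose the cells, were at 0.25 for Ier2, -0.08 for Egr1, 0.05 for Cyr61 and 0.05 for Snai1.

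As lists within these cells, 18 of 20 tested immediate early factors other than the rule genes had log2 changes above 0 with a median of 0.24, and for 7 of them both Sema4d-shRNA libraries lay above both NC libraries, against 0 the other way. Over all genes the median was 0.00 and such non-overlap was seen for 14.7% of genes upward and 23.6% downward. The AP-1 list had 10 of 12 above 0 (median 0.10) and the feedback list 14 of 29 (-0.00), so feedback genes lay at the level of all genes. Integrated stress response genes had 16 of 17 above 0 (median 0.28) with 10 non-overlapping upward, and all 17 tested G2 and M phase genes were above 0 (median 0.34) with 2 non-overlapping upward. No gene of these lists was called in the immediate-early-high cells. The shifts were not particular to them. In the other tumour cells 14 of 21 immediate early factors without the rule genes were above 0 (median 0.18). So were 15 of 17 integrated stress response genes (0.20) and 17 of 17 G2 and M phase genes (0.26). In macrophage-gated cells the counts were 18 of 20 (0.26), 12 of 17 (0.22) and 2 of 17 (-0.22).

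**Figure D5:**
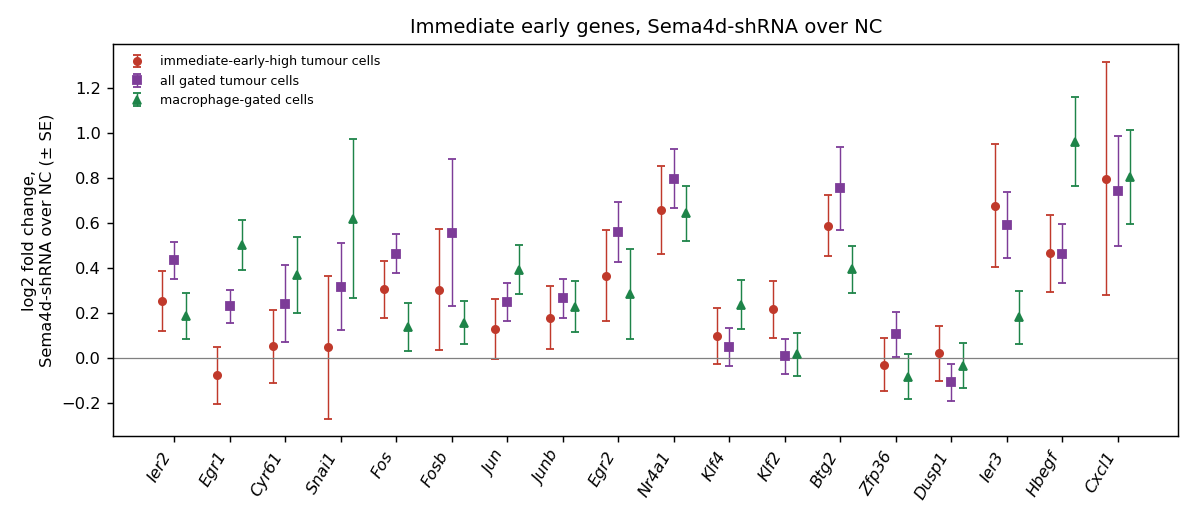
Log2 fold change with its standard error (edgeR), Sema4d-shRNA over NC, for immediate early and response genes in immediate-early-high, all gated tumour and macrophage-gated cells. Nr4a1 lies above 0 in all 3 kinds of cell, at 0.66, 0.80 and 0.64, while Zfp36 and Dusp1 lie near 0.

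The 4 genes that rose in the immediate-early-high cells were on none of the lists. Ppp2cb, 1 of the catalytic subunits of the phosphatase PP2A (chromosome 8, 33599625 to 33619441), rose to 54.7 and 49.7 CPM in Sema4d-shRNA, against 22.2 and 28.0 CPM in NC (log2 1.09, SE 0.16, edgeR adjusted p = 0.0040). Ybx3, a Y-box protein that binds RNA, rose to 375 and 386, against 255 and 224 CPM (0.70, SE 0.12, edgeR adjusted p = 0.018). Nppb, the natriuretic peptide gene that also responds to stretch in heart, rose to 48.2 and 47.5, against 29.0 and 26.3 CPM (0.82, SE 0.15, edgeR adjusted p = 0.025). Lrg1, a secreted leucine-rich glycoprotein, rose to 5.94 and 5.83, against 0.262 and 1.14 CPM (3.10, SE 0.52, edgeR adjusted p = 0.014). The 4 genes were set apart by both libraries of each group, but the edgeR calls of all 4 were lost without NC library 1, at adjusted p of 0.22 for Ppp2cb, 0.25 for Ybx3 and Nppb and 0.35 for Lrg1, and those of Ybx3 (0.56) and Nppb (0.45) also without NC library 2.

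In the other tumour cells edgeR called 87 of 14691 genes (0.592%), with 787 and 1068 without Sema4d-shRNA libraries 1 and 2, and 11 and 3 without NC libraries 1 and 2. Both kinds of cell share their libraries, so their values are given side by side. Ppp2cb was at 1.09 in the immediate-early-high and 0.98 in the other cells, Ybx3 at 0.70 and 0.66, Lrg1 at 3.10 and 1.73 and Nppb at 0.82 and 0.30. Of these, Lrg1 (edgeR adjusted p = 0.14) and Nppb (0.52) were not called in the other cells. Neither had a called difference between the 2 kinds of cell in the test of that difference, given below for all genes.

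Of the 26 genes that fell, 10 were mitochondrially encoded and 10 are made mainly by myeloid or antigen-presenting cells. mt-Cytb, a subunit of respiratory complex III, fell to 296 and 329 CPM in Sema4d-shRNA, against 674 and 709 CPM in NC (log2 -1.11, SE 0.13, edgeR adjusted p = 0.0013). C1qa, a complement subunit of macrophages, fell to 27.5 and 26.0, against 62.8 and 78.7 CPM (-1.37, SE 0.15, edgeR adjusted p = 0.0013). In macrophage-gated cells C1qa stood at 5410 and 4523 CPM (Sema4d-shRNA) and 5953 and 6022 CPM (NC), and macrophage-gated cells were 16.0% and 16.5% of the Sema4d-shRNA libraries and 26.2% and 35.0% of the NC libraries. Among immediate-early-high cells without a UMI of the gate's immune genes C1qa was at -1.46 (edgeR adjusted p = 0.011). The part of RNA from other cells in these genes was not tested.

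The other 6 that fell were Nkain2, Pid1, Prkcdbp, Ccdc85b, Gm21738 and 3110079O15Rik. Nkain2, a partner of the sodium pump, had 142 and 127 CPM in Sema4d-shRNA, against 245 and 348 CPM in NC (log2 -1.11, SE 0.15, edgeR adjusted p = 0.0085). Pid1, which lowers insulin and LRP1 signalling, fell to 8.43 and 5.60, against 18.3 and 21.2 CPM (-1.47, SE 0.24, edgeR adjusted p = 0.0089). The caveolar protein gene Prkcdbp fell by 0.83 on the log2 scale (edgeR adjusted p = 0.013). Gm21738 and 3110079O15Rik were at 0.224 CPM or less in Sema4d-shRNA and at 2.00 to 4.71 CPM in NC, which are few UMIs.

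The targeted gene Sema4d was scarce in these cells. It had 3.59 and 7.06 CPM in the immediate-early-high cells of the Sema4d-shRNA libraries and 4.97 and 6.58 CPM in those of the NC libraries (log2 -0.05, edgeR adjusted p = 0.99), and the groups overlapped. In the other tumour cells it had 4.25 and 5.77, against 7.03 and 7.87 CPM (-0.52, edgeR adjusted p = 0.23), with no overlap. The receptor gene Plxnb2 had 57.8 and 47.8 CPM (Sema4d-shRNA) and 73.0 and 69.8 CPM (NC) in the immediate-early-high cells (-0.40, edgeR adjusted p = 0.42), and Plxnb1 had 1.11 and 2.24, against 1.57 and 2.29 CPM.

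The difference of the Sema4d-shRNA effect between immediate-early-high and other tumour cells was tested across 13574 genes with the library as a block. edgeR called 1 of them (0.00737%), the nuclear-retained noncoding RNA Malat1 (chromosome 19, 5795690 to 5802672), at -1.08 on the log2 scale (SE 0.10, edgeR adjusted p = 3.3e-07). Malat1 had 95.1 and 176 CPM in the immediate-early-high cells of the Sema4d-shRNA libraries and 262 and 239 CPM in those of the NC libraries, against 165 and 306, and 232 and 175 CPM in the other tumour cells. It was thus lower in the immediate-early-high than in the other cells of both Sema4d-shRNA libraries and higher in both NC libraries. Malat1 was called with any 1 library left out, but not among cells with no immune UMI, after thinning, with the top 5% or with the top 10% within each library. The count of genes called was 40 and 94 without Sema4d-shRNA libraries 1 and 2, and 10 and 3 without NC libraries 1 and 2. The rule genes chose both kinds of cell and are given as values only. Ier2 was at -0.04, Cyr61 at -0.05, Egr1 at -0.21 and Snai1 at -0.25.

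Macrophage-gated cells went through the same digestion, and the same genes are given there. edgeR called 131 of 12636 genes (1.04%), among them 3 of the response. They were 1 of 23 tested immediate early factors (rule genes included) and 2 of 30 feedback genes. None of 14 AP-1, 21 SRF and YAP target or 18 growth factor, cytokine and protease genes was called. The count was 332 and 634 without Sema4d-shRNA libraries 1 and 2, and 43 and 47 without NC libraries 1 and 2. Dusp5, a nuclear ERK phosphatase, rose to 23.7 and 22.4 CPM in Sema4d-shRNA, against 12.4 and 10.9 CPM in NC (log2 1.04, SE 0.14, edgeR adjusted p = 0.0050). Nr4a1 rose to 28.2 and 26.0, against 18.5 and 17.5 CPM (0.64, edgeR adjusted p = 0.041), and Dusp2 to 25.5 and 28.2, against 11.1 and 6.57 CPM (1.66, edgeR adjusted p = 0.031). Egr1 had 152 and 166, against 126 and 106 CPM (0.50, edgeR adjusted p = 0.081) and Ier2 was at 0.19 (0.54). The calls of Dusp5 and Nr4a1 were lost when either NC library was left out, and T and NK markers moved with these cells, with Nkg7 at 76.7 and 71.5 CPM in Sema4d-shRNA, against 10.4 and 10.7 CPM in NC, and their part in Dusp2 was not tested.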

How the data were processed

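Droplet single-cell RNA-seq of 4 libraries was used. The authors deposited raw UMI counts per gene symbol and cell, written by PISA 1.0 per the file headers. The submitters' processing notes name STAR 2.5.1b and the builds GRCh38 and mm10 without their roles. How cells were called, which annotation was used and whether strand counted were not given in the sources used here. Overlapping and near-identical genes are therefore uncertain. The files list 23635 genes, and depth is given in the report. Cell names were running numbers, with 756 to 3782 shared between libraries and 0 of these with equal UMI totals.

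The rule was applied to raw counts (Python 3.11.15, NumPy 2.4.6, pandas 2.3.3, SciPy 1.17.1) and counts were summed per library and kind of cell. Macrophage-gated cells had at least 20 UMIs of Tyrobp and Fcer1g and under 5 of the tumour genes per 10000, and no Cd3e, Cd3g or Epcam. Ratios between kinds of cell used log2(CPM + 1). The test of the sums was that of edgeR 4.0.16 in R 4.3.3 with limma 3.58.1 (filterByExpr, TMM, robust quasi-likelihood, group as the only term, or library block and interaction), with Benjamini-Hochberg adjustment over all genes tested at 0.05. The test was checked on simulated sums with 200 changed genes. No doublet caller was run, and cells above the 95th percentile of depth were left out as an alternative. Alternatives were RLE factors, DESeq2 1.42.0, no filter on low counts, other choices of cells, the replicate number as a block and leaving out each library. Members and the 26 lists were chosen with earlier results of these data known. Named genes were the rule genes, up to 10 called genes in each direction without overlap, Sema4d and its receptors, the highest list members, and the 20 highest and 10 lowest ratios. Others, such as Cxcl2, Dusp2 and the genes of the Cyr61-led cells, were named after their values had been seen. Gene places are from GENCODE on GRCm38, matched by symbol, and promoters from RefSeq GRCm38.p6. Some genes are not reported here.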

Additional observations from a re-analysis of the deposited data

Results flagged for a closer look

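Of 13574 genes, Malat1 was the 1 called for a difference of the Sema4d-shRNA effect between immediate-early-high and other tumour cells. The difference was -1.08 on the log2 scale (edgeR interaction, adjusted p = 3.3e-07). The log2 ratio of immediate-early-high over other cells was -0.78 and -0.79 in the Sema4d-shRNA libraries and 0.18 and 0.45 in the NC libraries. Macrophage-gated cells held more of it, at 1302 and 1384 CPM in the Sema4d-shRNA libraries and 1155 and 1038 CPM in the NC libraries, and their part in the difference was not tested. The difference was -1.23 to -0.92 with any 1 library left out and stayed called. It was not called among cells with no immune UMI (-1.53, edgeR adjusted p = 1.00), after thinning (-0.56), with the top 10% taken within each library (-1.31, edgeR adjusted p = 0.36) or with the top 5% (-1.82).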

How the results depend on the processing

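The share of immediate-early-high cells was higher in Sema4d-shRNA than in NC under each alternative tried other than the top 10% within each library, which fixes the share, at log2 0.82 with the top 5%, 0.44 with the top 20% and 0.50 to 0.73 with 1 library left out. The number of genes called by edgeR in the immediate-early-high cells was 30, and it was 139 with no filter on low counts, 87 with the replicate block and 11 to 306 with 1 library left out. Of the 11 genes called without NC library 1, 8 were among the 30. In the other tumour cells the count was 87, and it was 973 with no filter, 289 by DESeq2, 177 among cells with no immune UMI and 3 to 1068 with 1 library left out. In all gated tumour cells it was 84, against 630 with no filter, 286 by DESeq2 and 3 to 1152 with 1 library left out. In macrophage-gated cells it was 131, against 589 with no filter, 789 with the replicate block and 43 to 634 with 1 library left out. For the difference of effects it was 1, against 8 with no filter, 2 with equal weights, 2 with the top 10% within each library, 11 with the top 5%, 0 after thinning (edgeR, 451 genes at an unadjusted p under 0.05) and 3 to 94 with 1 library left out. Among the counts with 1 library left out, in each of the 5 comparisons the lowest came without an NC library and the highest without a Sema4d-shRNA library. The causes of these shifts were not tested.

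Replicate numbers are not said to pair the samples, and same-numbered libraries' deviations had correlations of -0.103 to 0.088 by kind of cell. With the replicate block the count was 81 in the other tumour cells and 67 in all gated tumour cells, and with the numbers crossed, an alternative added after the data had been seen, 393 and 274. The calls of Ier5l, Ppp1r15a, Inhba and Atf4 in all gated cells were lost under the block (edgeR adjusted p = 0.066, 0.094, 0.058 and 0.072). Values of single called genes under an alternative, these genes included and Malat1 left out, kept the call in 241 cases and lost it in 41. None turned its direction. Gained calls and the ratios between kinds of cell are not in this count. C1qa and mt-Cytb kept their calls in the immediate-early-high cells under every alternative tried. Lrg1 was not called by DESeq2 (adjusted p = 0.096) or with the top 20% (edgeR adjusted p = 0.056), and Ppp2cb was not called among cells with no immune UMI (edgeR adjusted p = 0.14). Nppb was the least stable of the genes that rose there, keeping its call under 8 alternatives and losing it under 8. Ybx3 kept its call under 14 and lost it under 2. With 2 libraries a group, leaving one out rests that group's spread on the other group.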
